A study of Mus musculus with 3 samples.

Results

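The 32 genes described here carry glucose into the cell, break it down to pyruvate and lactate, export the lactate, or report on low oxygen. They were taken as a list of names by role, chosen with earlier results of these data known, out of the 21438 genes with a row in any table of the series, and each of the 32 had a row in all 4 count tables. Single cells of adult mouse sciatic nerve were profiled by Drop-seq, a droplet method whose beads tag every RNA molecule with 1 barcode for its cell and 1 for itself (the unique molecular identifier, UMI). The injured groups were distal nerve segments 9 days after resection, 1 library cleared of myelin with beads (wildtype CD1 mice) and 1 library from CD1 and C57BL/6 mice sorted by FACS with a gate that the labels do not name. The uninjured group was 1 bead library of wildtype CD1 mice, of which only cells the authors predicted to be mesenchymal were deposited. Collagenase and trypsin freed the cells in each case, and the labels do not say how many animals a library pools.

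Glycolysis turns glucose into pyruvate, and lactate dehydrogenase turns pyruvate into lactate, which monocarboxylate transporters move across the membrane. When oxygen is low, the prolyl hydroxylases no longer mark the HIF alpha subunits for breakdown, and HIF then raises transcription of glucose transporters, most glycolytic enzymes and genes such as Adm and Ndrg1. HIF alpha subunits are controlled chiefly at the protein level, which transcript counts do not show. In peripheral nerve, the perineurium is a sheath of flattened cells joined by tight junctions around each fascicle and forms part of the blood-nerve barrier. Endoneurial fibroblasts lie inside the fascicle beside axons and Schwann cells, and epineurial cells lie outside the sheath.

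HIF binds DNA at the core letters ACGTG or GCGTG, so the 250 bases before the start of 4 members with large differences between cell types or conditions are shown, as RefSeq (GRCm38.p6) gives them. They are written 5′ to 3′ on the gene's strand, and capitals mark every ACGTG or GCGTG on either strand (read as CACGT or CACGC on the other). CACGTG holds the first core on both strands at once.
Slc2a1, chr4:119108495-119108744, plus strand: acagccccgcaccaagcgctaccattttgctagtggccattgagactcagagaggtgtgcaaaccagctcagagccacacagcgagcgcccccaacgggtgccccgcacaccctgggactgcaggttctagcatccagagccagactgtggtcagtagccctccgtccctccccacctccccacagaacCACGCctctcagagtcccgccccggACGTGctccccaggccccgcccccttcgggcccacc
Slc16a1, chr3:104638414-104638663, plus strand: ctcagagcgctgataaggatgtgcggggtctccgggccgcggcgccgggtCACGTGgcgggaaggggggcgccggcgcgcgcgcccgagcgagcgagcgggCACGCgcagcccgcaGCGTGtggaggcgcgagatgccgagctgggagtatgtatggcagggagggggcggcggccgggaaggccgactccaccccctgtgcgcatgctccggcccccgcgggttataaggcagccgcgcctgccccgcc
Ldha, chr7:46845554-46845803, plus strand: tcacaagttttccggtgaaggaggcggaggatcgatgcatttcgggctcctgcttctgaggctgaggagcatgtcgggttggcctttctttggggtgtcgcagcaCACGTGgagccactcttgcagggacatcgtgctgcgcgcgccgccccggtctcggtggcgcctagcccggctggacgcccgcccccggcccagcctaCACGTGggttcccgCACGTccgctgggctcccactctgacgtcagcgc
Adm, chr7:110627407-110627656, plus strand: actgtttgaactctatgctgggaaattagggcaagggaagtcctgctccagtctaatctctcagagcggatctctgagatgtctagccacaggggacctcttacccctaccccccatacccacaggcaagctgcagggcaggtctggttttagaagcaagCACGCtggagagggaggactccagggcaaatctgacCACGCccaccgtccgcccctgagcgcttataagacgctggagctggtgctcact
The cores numbered 2 in Slc2a1, 4 in Slc16a1, 5 in Ldha and 2 in Adm, with each strand counted. Ldha has 2 listed starts, of which 1 was used. Its window lies inside the gene as GENCODE gives it (chr7:46841475-46855627). Of the 29 members with an entry, 23 (79.3%) held at least 1 core in this window, beside 38.6% of the 27025 genes in the table. Each core taken alone was in 16.6% (ACGTG) and 28.2% (GCGTG) of those 27025 windows. A match describes letters only, and no binding was measured.

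The injured bead library held 4300 barcodes with 10859939 UMIs (median 1343), and the FACS library 2000 barcodes with 7122377 UMIs (median 2356.5). The mesenchymal tables held 1289 injured cells (4746263 UMIs, median 2798) and 880 uninjured cells (2169121 UMIs, median 2102.5), and all 1289 injured barcodes were also in the injured bead table. The bead and FACS libraries shared 1 barcode. Levels below are UMIs summed over a pool of cells and scaled to a pool total of 1000000 (CPM). A gene entered a comparison with at least 50 CPM in 1 of the 2 pools. It was called higher or lower with a ratio of at least 2-fold and a 95% interval that excluded 1. A gene under 50 CPM in 1 pool entered through the other pool alone, and could be called only as higher there. With 1 library per group there is no replicate check and no p-value, and every interval covers counting error only.

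In the mesenchymal cells as a whole, Hif1a was several-fold higher after injury and Ndrg1 was lower. The glycolytic enzyme genes Gpi1, Aldoa, Tpi1 and Eno1 lay nearer their uninjured levels, while Hk2, Pkm and Ldha were higher by less than 2-fold. Of the 32 members, 14 reached 50 CPM. Of these, 1 was called higher, beside 8.17% of the 3964 genes tested, and 1 lower, beside 7.14% of those genes. The median log2 ratio (injured over uninjured) was 0.35 over the 14 members and 0.20 over all genes tested. The 2 called members are therefore near the share called among all genes.

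Hif1a (chr12:73901375-73947530) encodes the oxygen-regulated subunit HIF-1 alpha. Its level was 359 CPM in injured mesenchymal cells (1705 UMIs) and 77.0 CPM in uninjured ones (167 UMIs), a log2 ratio of 2.22 (1.99 to 2.46). Ndrg1 (chr15:66929318-66969640) is a stress- and hypoxia-induced gene that peripheral nerve needs to keep its myelin. It stood at 87.2 CPM after injury and 265 CPM without injury, a log2 ratio of -1.60 (-1.79 to -1.42). That call was lost with cells thinned to 1000 UMIs (-0.97) or with the endoneurial-like, epineurial-like and perineurial-like subclasses described below at the same weight (-0.87). Both pairs of counting intervals lay apart.

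Among the transporters and enzymes, Slc2a1 (the glucose transporter GLUT1) stood at 57.3 CPM injured and 106 CPM uninjured. Its log2 ratio of -0.89 (-1.15 to -0.63) just missed the 2-fold rule, and reached it with TMM factors (-1.02) or DESeq2 size factors (-1.01). Over 13 alternatives it ranged from -1.80 with FACS cells as the injured pool to -0.35 without perineurial-like cells, and was -0.61 with the 3 subclasses at the same weight. Hk2, an inducible hexokinase that traps glucose as its phosphate, stood at 56.5 against 31.8 CPM. Gpi1, of an early step, and Aldoa, Tpi1 and Eno1, of middle and late steps, had log2 ratios between -0.29 and 0.31. Over 13 alternatives the log2 ratio of Eno1 ranged from -0.83 to 1.26. Pkm, the pyruvate kinase gene of most tissues, stood at 206 against 120 CPM (log2 ratio 0.78, 0.58 to 0.98), and its ratio turned to -0.29 (-0.63 to 0.06) with the 3 subclasses at the same weight. That weighting leaves out 403 differentiating-like and 367 unnamed injured cells, against 1 and 6 uninjured ones. It also raises the weight of perineurial-like cells, which are 5.66% of injured and 7.5% of uninjured cells. Pkm stood at 181 against 90.9 CPM in endoneurial-like, 123 against 111 CPM in epineurial-like and 187 against 398 CPM in perineurial-like cells. Ldha, the lactate dehydrogenase subunit that favours lactate, stood at 320 against 164 CPM, and its log2 ratio of 0.96 (0.79 to 1.13) lay just short of the rule. Ldhb, the other subunit, stood at 78.8 against 53.9 CPM. Slc16a1, the lactate and pyruvate transporter MCT1, stood at 144 against 110 CPM, a log2 ratio of 0.39 that turned to -0.60 with the 3 subclasses at the same weight. None of these was called, though several intervals excluded a ratio of 1.

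Adm, a vasodilator peptide gene, stood at 108 CPM injured and 77.9 CPM uninjured, and Ddit4, an inhibitor of mTOR complex 1, at 84.9 and 104 CPM. The other 18 members stayed under 50 CPM in both pools. Slc16a3, the lactate exporter MCT4, was among them, with 44 UMIs in injured cells (9.27 CPM) and 3 in uninjured cells (1.38 CPM). Egln3, a HIF prolyl hydroxylase, had 7 UMIs (1.47 CPM) and 16 UMIs (7.38 CPM). Aldoc had 0 UMIs in injured cells, which allows up to 0.632 CPM (3 counts of the pool total), and 1 UMI in uninjured cells.

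Gapdh, usually an abundant transcript, had only 19 UMIs in the injured (4 CPM) and 11 in the uninjured mesenchymal cells (5.07 CPM). Of the 30-base stretches in the last 500 bases of its transcript, 95.1% also occurred in transcripts of other genes, 261 of them pseudogenes. The corresponding share was 84.7% for Eno1, 80.5% for Bnip3 and 100% for Pfkp, and 36.1% for Ldhb, 25.3% for Aldoa and 19.5% for Gpi1. It was 0% for Hif1a, Slc2a1, Slc16a1, Ldha, Pkm and Pgam1, and Pgam1 was nonetheless counted at 9.27 and 6.45 CPM. The sources used here do not say how reads matching several genes were counted, and levels of Gapdh, Eno1, Bnip3 and Pfkp are uncertain. Those of Ldhb, Aldoa and Gpi1 are uncertain to a smaller share of their sequence. This limit holds for these genes in every cell class and library below.

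**Figure D1:**
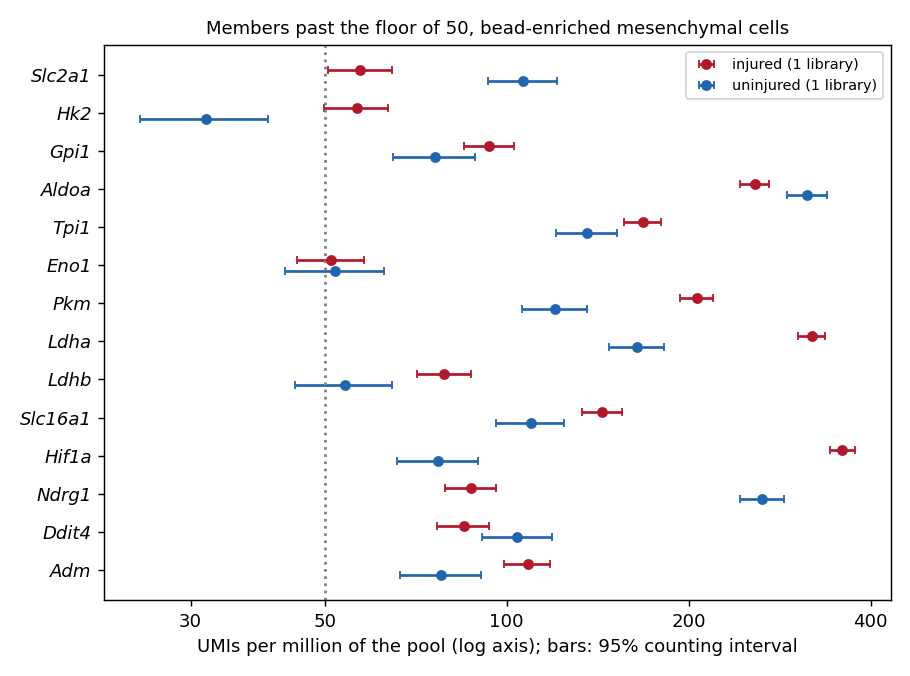
Level of the 14 members with at least 50 CPM in 1 of the 2 mesenchymal pools (log x axis, red injured, blue uninjured, bars 95% counting intervals, dotted line the floor). Hif1a lies furthest to the right in the injured pool at 359 and Ndrg1 stands at 265 uninjured and 87.2 injured, while Eno1 overlaps at 51.2 and 52.1.

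Other parts of energy metabolism were compared in the same cells from lists given in the processing notes. None of the 18 tested genes of pyruvate dehydrogenase and the TCA cycle, of 4 in the pentose phosphate pathway and of 26 in oxidative phosphorylation was called. Of 9 tested further hypoxia response genes 1 was called higher, Angptl4, an inhibitor of lipoprotein lipase, at 247 against 82.1 CPM. Among 19 genes of the immediate early response and of dissociation stress, 1 was called higher and 14 lower, and their summed level was 13094 CPM injured and 31979 CPM uninjured. Mononuclear phagocyte markers summed to 307 CPM (12 of 12 markers seen) against 19.4 CPM (7 of 12, with Adgre1, C1qa, C1qc and Cd209a at 0). Erythroid markers summed to 112 against 1612 CPM. The part of these differences in the members' ratios was not tested.

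Slc2a1, Slc16a1 and Ndrg1 had their highest levels among the named mesenchymal subclasses in perineurial-like cells, in both libraries. Cells of both mesenchymal tables were clustered jointly, without the 32 members or the metabolic lists, and 1 cluster was named perineurial-like from Itgb4, Lypd2, Cldn1, Msln, Ntng1, Perp, Krt19 and Tjp1. It held 73 injured and 66 uninjured cells. These marker genes summed to 3465 CPM in the injured and 7005 CPM in the uninjured part of the cluster.

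GLUT1 is the glucose transporter of blood-tissue barriers, including the perineurium. Slc2a1 (chr4:119108711-119137983) stood at 845 CPM in injured perineurial-like cells (181 UMIs) and 20.1 CPM in the other injured mesenchymal cells. In uninjured nerve the levels were 1294 CPM (179 UMIs) and 25.6 CPM. The log2 ratios of 5.4 (5.02 to 5.78) and 5.66 (5.21 to 6.13) were called in both libraries, with intervals of the levels far apart. Of all Slc2a1 UMIs in the mesenchymal tables, perineurial-like cells held 66.5% injured and 77.5% uninjured.

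Slc16a1 (chr3:104638668-104658462) stood at 742 CPM (injured) and 1337 CPM (uninjured) in perineurial-like cells, against 116 and 26.1 CPM in the others. Its log2 ratio over the other cells was 2.68 (2.42 to 2.94) injured and 5.68 (5.23 to 6.15) uninjured. It was called in both libraries, and the other mesenchymal cells had the higher level after injury. Ndrg1 stood at 850 and 1533 CPM against 51.2 and 178 CPM, log2 ratios of 4.05 (3.77 to 4.34) and 3.10 (2.85 to 3.35). Pdk1, a kinase that switches off pyruvate dehydrogenase, stood at 107 and 130 CPM against 15.7 and 14.3 CPM.

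**Figure D2:**
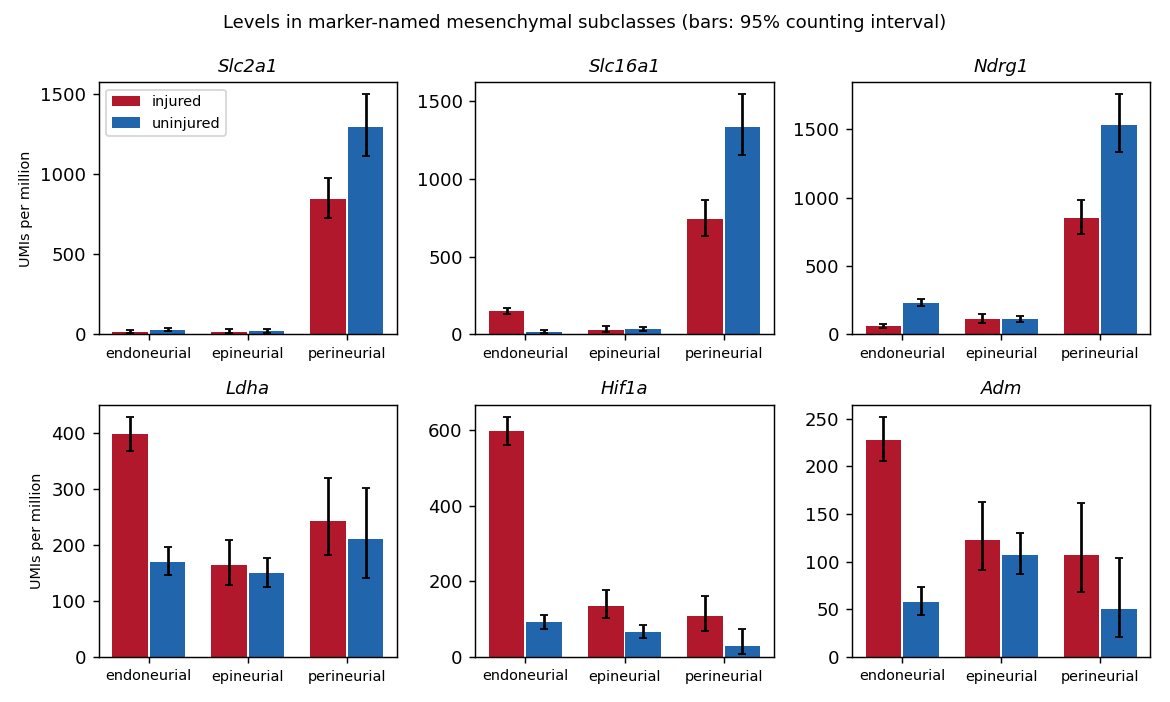
Levels of 6 members in endoneurial-like, epineurial-like and perineurial-like cells (y axis CPM from 0, with its own range in each panel, red injured, blue uninjured, bars 95% counting intervals, 1 library each). Slc2a1, Slc16a1 and Ndrg1 are tallest in perineurial-like cells of both libraries, and Hif1a, Adm and Ldha are tallest in injured endoneurial-like cells at 597, 228 and 397.

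In all, 7 of 16 members tested were called higher in injured perineurial-like cells, beside 14.2% of 4543 genes. The other 4 called higher were Ldhb (303 against 68.2 CPM), Pdk1, Epas1 (79.4 against 35.5 CPM) and Ddit4 (177 against 80.5 CPM). Epas1 encodes HIF-2 alpha. In uninjured nerve 11 of 16 members tested were called higher, beside 24.9% of 4726 genes. They were Slc2a1, Slc16a1, Ndrg1, Pdk1, Ldhb, Epas1, Gpi1, Tpi1, Eno1, Pkm and Egln1. In the other mesenchymal cells only 9 of the 16 members reached 50 CPM uninjured, and 13 injured. The rest entered through the perineurial-like pool alone, could not be called lower, and were all called higher. Hif1a was called lower in both, at 107 against 371 CPM injured and 28.9 (4 UMIs) against 80.3 CPM uninjured, beside 10.9% and 10.4% of genes called lower. Hk2 was also called lower in the injured library, at 23.3 (5 UMIs) against 58.0 CPM. Ldha and Adm were not called in either library.

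The perineurial-like cells also differed outside the list. Of 26 oxidative phosphorylation genes 8 were called higher in the uninjured library, led by Atp5b at 918 against 318 CPM, and 2 in the injured one. The uninjured count was near, and the injured count below, the share of all genes called higher given above for the same comparison. The hypoxia response gene Vegfa was called lower in both, at 7.23 against 64.0 CPM uninjured and 28 against 95.3 CPM injured. Immediate early and stress genes summed to 6860 against 33690 CPM uninjured and 5766 against 13441 CPM injured. Pericyte or smooth muscle markers summed to 1894 CPM uninjured and 1541 CPM injured in perineurial-like cells (6 of 9 seen in each, with Abcc9 and Des at 0 in both), beside 284 and 276 CPM in the other cells. Erythroid markers summed to 3224 and 392 CPM in them, beside 1502 and 98.9 CPM. The part of these other genes in the members' ratios was not tested.

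The share of cells with a Slc2a1 UMI was also compared at equal depth. With each cell thinned to 1000 UMIs, 28 of 60 injured perineurial-like cells (46.7%, 33.7 to 60.0) and 34 of 51 uninjured ones (66.7%, 52.1 to 79.2) had one, leaving out 13 and 15 shallower cells. In endoneurial-like cells the shares were 3 of 242 (1.24%) and 7 of 381 (1.84%), leaving out 6 and 45. Unthinned, the shares were 65.8% and 72.7% in perineurial-like and 8.87% and 5.63% in endoneurial-like cells, at median depths of 2462, 1741.5, 6267 and 2182.5 UMIs. In Schwann cell-like cells of the injured bead library, 3 of 332 thinned cells had a Slc2a1 UMI (0.904%).

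In endoneurial-like cells Hif1a, Slc16a1, Adm, Ldha and Ldhb were higher in injured than in uninjured nerve, and Ndrg1 was lower. Of 12 members tested, 5 were called higher, beside 11% of 3726 genes, and 1 lower, beside 9.39%. The median log2 ratio was 0.92 over the 12 members and 0.09 over all genes tested. The 248 injured cells came from a cluster of 247 injured cells led by Wif1, Ccl9 and Ccl2, with 1 more, and the 426 uninjured ones from a cluster led by Angptl7 and Enpp2. The cells compared are thus from different clusters, each almost wholly of 1 library. At a clustering resolution of 1.6 the corresponding injured cluster (241 cells) stayed unnamed.

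Hif1a stood at 597 CPM in injured endoneurial-like cells (985 UMIs) and 91.8 CPM in uninjured ones (102 UMIs), a log2 ratio of 2.70 (2.41 to 3.01). Thinned to 1000 UMIs, 48.3% of injured and 6.82% of uninjured endoneurial-like cells had a Hif1a UMI (85.5% and 19.5% unthinned). Slc16a1 stood at 149 CPM (246 UMIs) against 18.9 CPM (21 UMIs), a log2 ratio of 2.98 (2.34 to 3.70). The injured endoneurial-like level remained well under that of perineurial-like cells.

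Adm (chr7:110627661-110629820) stood at 228 against 57.6 CPM, a log2 ratio of 1.98 (1.6 to 2.39). Thinned, 16.9% of injured and 3.15% of uninjured endoneurial-like cells had an Adm UMI (51.2% and 8.45% unthinned), beside 0.301% of Schwann cell-like cells in the injured bead library. Ldha stood at 397 against 169 CPM (1.23, 0.99 to 1.47) and Ldhb at 115 against 55.8 CPM (1.05, 0.62 to 1.48). Pkm, at 181 against 90.9 CPM, lay just inside a 2-fold ratio and was not called. Ndrg1 went the other way, at 61.2 against 232 CPM (-1.92, -2.27 to -1.59).

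In the FACS library, 94 injured endoneurial-like cells gave 396 CPM of Hif1a, 95.9 CPM of Slc16a1, 328 CPM of Adm, 459 CPM of Ldha, 205 CPM of Ldhb and 21.7 CPM of Ndrg1. These values may be set beside the same uninjured cells, which both injured libraries then share. In the endoneurial-like comparison of the bead libraries, immediate early and stress genes summed to 17172 CPM injured and 50359 CPM uninjured, with 16 of 19 called lower. Mononuclear phagocyte markers summed to 227 CPM (10 of 12 seen) and 9.00 CPM (5 of 12), with Adgre1 and Cd209a at 0 in both. Their part in the members' ratios was not tested. Of the other lists, Angptl4 (299 against 63.0 CPM), Pdk3, another pyruvate dehydrogenase kinase (51.5 against 12.6 CPM), and Pgls (110 against 53.1 CPM) were called higher and Tkt (45.5 against 93.6 CPM) lower. The last 2 belong to the pentose phosphate pathway.

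In epineurial-like cells (198 injured, 381 uninjured) Hif1a was called higher, at 135 against 66.0 CPM, 1 of 9 members tested beside 4.02% of 3755 genes. None was called lower, beside 2.26%. Ndrg1 stood at 113 CPM in both. In perineurial-like cells 1 of 16 members was called higher, Hif1a at 107 (23 UMIs) against 28.9 CPM (4 UMIs), beside 5.53% of 4880 genes. Thinned to 1000 UMIs, 3 of 60 injured (5.0%, 1.04 to 13.9) and 1 of 51 uninjured perineurial-like cells (1.96%, 0.05 to 10.4) had a Hif1a UMI, and these intervals overlap (23.3% and 4.55% unthinned). Pkm was called lower, at 187 against 398 CPM (log2 ratio -1.09, -1.72 to -0.48), beside 7.64%. Slc2a1, Slc16a1 and Ndrg1 had log2 ratios of -0.61, -0.85 and -0.85 there, under 2-fold, with intervals that excluded 0. The perineurial markers that name this cluster summed to 3465 CPM in its injured and 7005 CPM in its uninjured cells, and 5 of 19 immediate early and stress genes were called lower (Zfp36, Klf2, Hspa1a, Hspa1b and Dnajb1). Their part in these ratios and in that of Pkm was not tested. Without perineurial-like cells, an alternative chosen after seeing the data, the log2 ratio of Slc16a1 was 2.15 and that of Slc2a1 -0.35, and 4 members were called higher in place of 1.

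Differentiating-like cells, named from Dlk1, Mest, Postn, Tnc, Cthrc1 and Col12a1, numbered 403 injured and 1 uninjured, so no comparison was made. Their levels were 257 CPM of Hif1a, 304 CPM of Ldha, 249 CPM of Pkm, 110 CPM of Slc16a1 and 28.3 CPM of Ndrg1, and Adm stood at 19.4 CPM, below the 228 CPM of injured endoneurial-like cells.

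Across the cell classes of the injured bead library, 24 of the 32 members reached 50 CPM in at least 1 class. Pfkm, Aldoc and Pdk4 reached it in no named class or subclass. Clusters were named from markers and formed without the members, and gave 1111 mesenchymal-like, 575 endothelial cell-like, 510 mononuclear phagocyte-like, 464 Schwann cell-like, 389 B cell-like, 281 pericyte or smooth muscle cell-like, 209 T or NK cell-like, 125 neutrophil-like and 36 mast cell-like cells. Each class was compared with the mesenchymal-like cells of its own library, which therefore enter every class comparison.

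**Figure D3:**
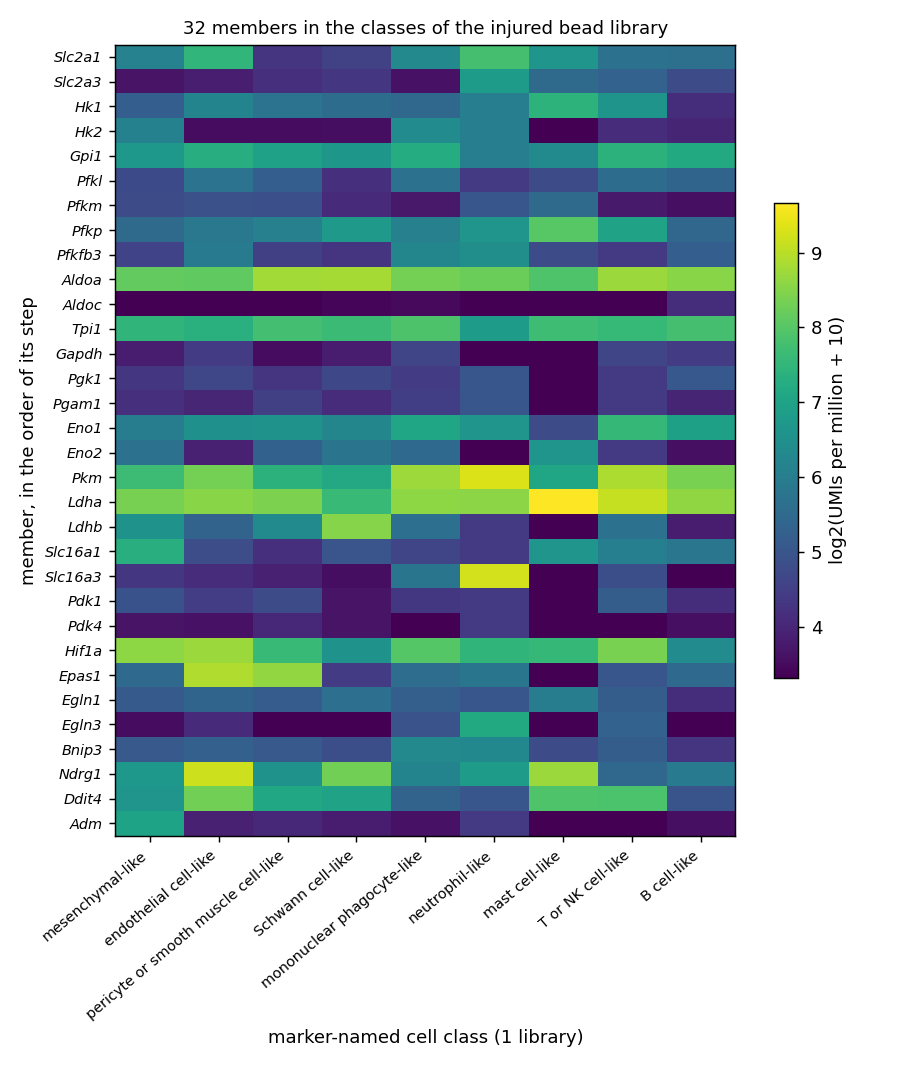
Level of each of the 32 members (rows, by step) in 9 marker-named classes of the injured bead library (columns), as log2 of CPM plus 10 in colour. Adm is bright in mesenchymal-like cells alone (118 against at most 11.2 elsewhere), Epas1 in endothelial and pericyte or smooth muscle cell-like cells (469 and 391), Ldhb in Schwann cell-like cells (354) and Slc16a3 in neutrophil-like cells (595).

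Adm stood at 118 CPM in mesenchymal-like cells of the bead library and 106 CPM in those of the FACS library. Its highest level in another bead class was 11.2 CPM, a single UMI of neutrophil-like cells, and T or NK cell-like and mast cell-like cells had 0, which allows up to 11.3 and 53.4 CPM (3 counts of each pool total). It was called lower in each of the 8 other bead classes. Hk2 was spread differently, at 59.0 CPM in mesenchymal-like, 73.2 CPM in phagocyte-like and 56.1 CPM (5 UMIs) in neutrophil-like cells. It stood at 1.48 to 1.69 CPM in endothelial, Schwann and pericyte or smooth muscle cell-like cells. B cell-like and T or NK cell-like cells had 5.82 and 7.52 CPM of Hk2, and mast cell-like cells 0.

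Endothelial cell-like cells, which line vessels, had 5 of 16 tested members called higher than in mesenchymal-like cells, beside 20.2% of 4776 genes, and 4 lower, beside 15.4%. Epas1 (chr17:86753700-86833410), a HIF subunit known from vascular endothelium, stood at 469 CPM (950 UMIs) against 34.9 CPM (152 UMIs), a log2 ratio of 3.75 (3.50 to 4.0). Ndrg1 stood at 573 against 93.5 CPM, Ddit4 at 309 against 88.4 CPM, Slc2a1 at 171 against 60.2 CPM and Hk1, the constitutive hexokinase, at 63.1 against 27.3 CPM. Hk2, Ldhb, Slc16a1 and Adm were lower. In the FACS library 6 of 17 were called higher, beside 18.2% of 4642 genes, and the same 4 were called lower, beside 14.4%. The 6 were Epas1 (323 against 11.8 CPM), Ndrg1, Ddit4, Slc2a1 (61.4 against 30.6 CPM), Pfkl and Pfkp. All but Ddit4 were under 50 CPM in FACS mesenchymal-like cells, as were Epas1 and Hk1 in bead ones. These entered through the endothelial cell-like pool alone and could not be called lower. Pfkl and Pfkp were not called in the bead library, and Hk1 was under 50 CPM in both FACS pools. Immediate early and stress genes summed to 31827 CPM in endothelial cell-like and 13572 CPM in mesenchymal-like cells of the bead library. Their part in these ratios was not tested.

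In pericyte or smooth muscle cell-like cells, the contractile cells of vessel walls, Epas1 was the 1 of 16 members called higher (391 CPM), beside 15.8% of 4589 genes. It was under 50 CPM in mesenchymal-like cells and could not be called lower. Slc2a1, Hk2, Slc16a1, Hif1a and Adm were called lower, beside 13%. Of the further hypoxia response genes, Ndufa4l2 (482 against 5.74 CPM) and Cox4i2 (160 against 0.689 CPM), which encode mitochondrial proteins induced by low oxygen, were called higher, and Vegfa lower (21.0 against 87.5 CPM). Immediate early and stress genes summed to 22151 CPM, beside 13572 CPM in mesenchymal-like cells, and their part was not tested.

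Schwann cell-like cells, the glia of the nerve, had 3 of 15 members called higher, beside 19% of 4814 genes, and 5 lower, beside 13.5%. Ldhb (chr6:142490249-142507957) stood at 354 CPM (419 UMIs) against 85.0 CPM (370 UMIs), a log2 ratio of 2.06 (1.85 to 2.26). Ndrg1 stood at 310 against 93.5 CPM, and Pfkp, the platelet-type phosphofructokinase, at 98.0 against 35.6 CPM. Slc2a1 (13.5 CPM), Hk2, Slc16a1 (22.0 CPM), Hif1a (83.6 against 373 CPM) and Adm were lower. In the FACS library the same 3 were called higher of 14, beside 21.1% of 4626 genes, and 4 lower, beside 14.3%. Pfkp in both libraries, and Ndrg1 in FACS, were under 50 CPM in mesenchymal-like cells and could not be called lower. Mesenchymal markers summed to 11562 CPM in these Schwann cell-like cells and 60381 CPM in the mesenchymal-like ones, and their part was not tested.

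In mononuclear phagocyte-like cells 4 of 17 members were called higher, beside 21.3% of 4623 genes, and 4 lower, beside 23%. Both counts were near the share of all genes. Pfkfb3, which makes the activator of phosphofructokinase, stood at 65.1 against 14 CPM, Pkm at 420 against 193 CPM, Eno1 at 126 against 53.1 CPM and Bnip3, a mitophagy gene, at 69.8 against 24.1 CPM. Pfkfb3 and Bnip3 were under 50 CPM in mesenchymal-like cells and could not be called lower. Levels of Eno1 and Bnip3 are uncertain, as described above. Ldhb, Slc16a1 (15.1 against 148 CPM), Ddit4 and Adm were lower. In FACS cells Pfkfb3 was the 1 of 13 members called higher (55.8 against 12.3 CPM), beside 19.1% of 4361 genes, and the same 4 were lower, beside 26.3%. Of 5 tested pentose phosphate genes, Taldo1, Tkt, Pgd and Rpia were called higher in the bead library, and Taldo1 and Pgd in the FACS library.

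Neutrophil-like cells, short-lived phagocytes known to rely on glycolysis, gave only 89111 UMIs in all, so their values rest on few counts. Of 21 members tested 8 were called higher, beside 21.6% of 4489 genes, and 5 lower, beside 37.2%. Slc16a3 stood at 595 CPM (53 UMIs) against 10.1 CPM, a log2 ratio of 5.88 (5.27 to 6.49). Pkm stood at 628 CPM (56 UMIs), Slc2a1 at 213 CPM (19 UMIs), Egln3 at 135 CPM (12 UMIs) against 1.61 CPM and Slc2a3, the glucose transporter GLUT3, at 101 CPM (9 UMIs) against 2.53 CPM. Pfkp (8 UMIs), Pfkfb3 (7 UMIs) and Bnip3 (6 UMIs) were the others called higher. Of the 8, only Pkm and Slc2a1 reached 50 CPM in mesenchymal-like cells. The others entered through the neutrophil-like pool alone and could not be called lower. The 5 called lower were Hif1a (168 against 373 CPM), Ddit4 (2 UMIs), and Ldhb, Slc16a1 and Adm (1 UMI each). Of 25 oxidative phosphorylation genes 14 were called lower and none higher. Phagocyte markers summed to 5993 CPM (6 of 12 seen) and mast cell markers to 2974 CPM (4 of 7) in these cells, beside 63595 CPM of neutrophil markers. Immediate early and stress genes summed to 33756 CPM. The part of these in the members' ratios was not tested.

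T or NK cell-like cells had Hk1, Pfkp, Eno1, Pkm and Ddit4 called higher of 16 members, beside 31.4% of 5084 genes. Hk2, Ldhb, Slc16a1, Ndrg1 and Adm were the 5 called lower, beside 23.3%. B cell-like cells had Eno1 called higher of 14, beside 32.5% of 5101 genes. The 6 called lower were Hk2, Ldhb, Slc16a1, Hif1a (73.7 against 373 CPM), Ddit4 and Adm, beside 26.2%. Mast cell-like cells (56128 UMIs) had Hk1, Pfkp, Ldha, Ndrg1 and Ddit4 called higher of 18, beside 19.1% of 5099 genes, and Ldhb, Hif1a and Adm lower, beside 17.4%. Ldha stood at 802 CPM (45 UMIs) in them. Hk1 and Pfkp were under 50 CPM in mesenchymal-like cells and could not be called lower in T or NK cell-like or mast cell-like cells.

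**Figure D4:**
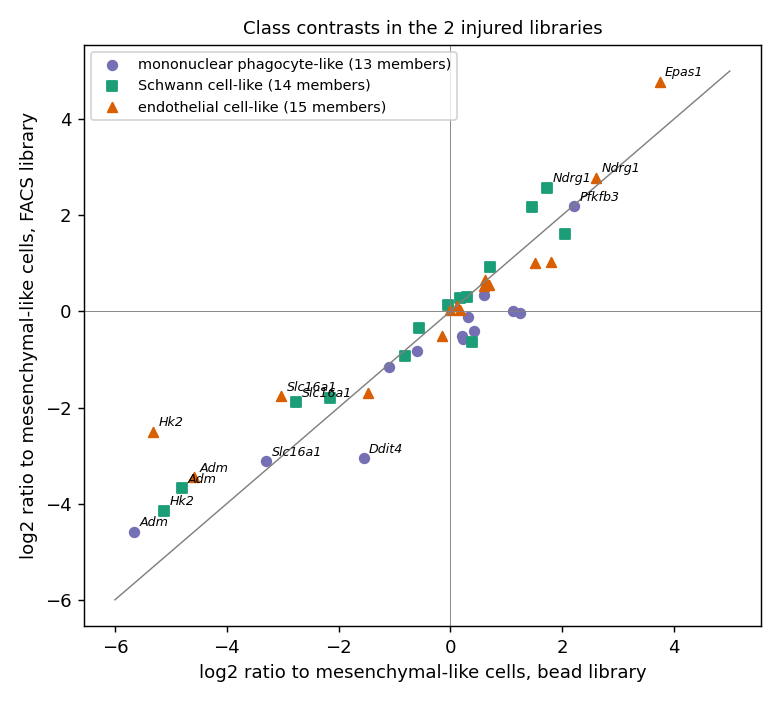
Log2 ratio of each class to the mesenchymal-like cells of the same library, bead library on the x axis and FACS library on the y axis, for members tested in both with UMIs in both pools (circles 13 in phagocyte-like, squares 14 in Schwann cell-like, triangles 15 in endothelial cell-like cells, grey line equal values). Epas1 in endothelial cell-like cells is highest at 3.75 and 4.77, and Adm in phagocyte-like cells is lowest at -5.66 and -4.59. The bead value of Adm rests on few counts, with a UMI in 0.392% of 510 phagocyte-like cells.

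Between the 2 injured libraries, which differ in isolation and mouse strain together, mesenchymal-like cells had Eno1 called higher in FACS (125 against 53.1 CPM), 1 of 14 members beside 3.59% of 3930 genes. Ndrg1 was called lower (43.3 against 93.5 CPM), beside 1.58%. Hif1a stood at 204 CPM in FACS and 373 CPM in bead mesenchymal-like cells. In phagocyte-like cells 5 of 13 members were called lower in FACS, beside 4.45% of 3688 genes, with Slc2a1 at 13.8 against 69.8 CPM, and none was called higher, beside 2.28%. In Schwann cell-like cells Eno1 was the 1 of 11 called higher in FACS (154 against 65.1 CPM), beside 4.66% of 4590 genes, and none was called lower, beside 5.12%. In endothelial cell-like cells Eno1 was called higher (181 against 80.4 CPM), beside 6.6% of 4543 genes, and Slc2a1 lower (61.4 against 171 CPM), beside 6.43%, among 14 members. No FACS cluster was named perineurial-like. A FACS cluster of 123 mesenchymal-like cells scored highest for the perineurial markers and had Slc2a1 among its 10 leading genes, but its margin over the next list was below 1.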

How the data were processed

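The authors deposited 4 tables of raw UMI counts per gene and cell, with mm10 as the build per the submitters' processing notes. The sources used here name no aligner or counting tool, nor how mesenchymal cells were predicted. Members, lists and markers were chosen with earlier results of these data known. Barcodes of the injured libraries with at least 200 genes were kept (4111 bead, 1914 FACS), and no doublet caller was used, so doublets remain. Cells were clustered with scanpy 1.11.5 (2000 variable genes, 30 components, 15 neighbours, Leiden resolution 0.8) without the members and the metabolic lists. A cluster took a name where its markers' mean log2 enrichment was at least 1 and led the next list by 1, with 3 markers in 5% of cells; this scoring rule was set after the data were seen. Counts were summed per pool and scaled to 1000000. Ratios carry exact conditional binomial, levels exact Poisson and shares exact binomial (Clopper-Pearson) 95% intervals. Every member at 50 CPM in a pool was eligible to be named, and wider lists by their called genes, at most 4. The ratio calls were checked on simulated counts. Other scalings used edgeR 4.0.16 (TMM) and DESeq2 1.42.0 size factors. They moved the median of all genes by -0.13 and -0.12 log2. Gene positions are from GENCODE vM21 (GRCm38, the assembly mm10 names).

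The wider lists held 25 further glycolysis genes, 29 further hypoxia response genes, 23 of pyruvate dehydrogenase and the TCA cycle, 7 of the pentose phosphate pathway, 26 of oxidative phosphorylation, 19 immediate early and dissociation stress genes and 15 cell cycle genes. In the 2 mesenchymal tables, 0 of 1 tested further glycolysis genes and 3 of 3 tested cell cycle genes were called, the latter higher after injury. The alternatives tried were other scalings, floors, folds, cell filters, thinning, class rules and the FACS cells as the injured pool. Leaving out perineurial-like cells and comparing subclasses separately were added after seeing the data. Some results of the wider lists are not reported here.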

Additional observations from a re-analysis of the deposited data

Results flagged for a closer look

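Pkm and Slc16a1 had log2 ratios of opposite sign after injury in 2 mesenchymal subclasses. In endoneurial-like cells the log2 ratio (injured over uninjured) was 0.99 for Pkm and 2.98 for Slc16a1. In perineurial-like cells it was -1.09 for Pkm and -0.85 for Slc16a1. Each value rests on 1 library per group, and the difference between the subclasses was not tested.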

How the results depend on the processing

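No paired analysis was possible because each group is 1 library, and for the same reason no replicate could be left out. In mesenchymal cells, the count of members higher after injury (1) became 3 with a floor of 10 CPM, 4 with no floor, 4 with a fold of 1.5, 3 with cells thinned to 1000 UMIs, 5 with FACS cells as the injured pool, 2 with 3 subclasses at the same weight and 4 without perineurial-like cells. The count lower (1) became 2 with TMM factors, DESeq2 size factors, a fold of 1.5, FACS cells or cells with markers of another type left out, 3 with no floor, and 0 with thinning or equal subclass weights. The median log2 ratio (0.35) was 0.62 with FACS cells and turned to -0.22 with equal subclass weights. Hif1a kept its call in each of 13 alternatives (log2 ratio 1.41 to 2.46).

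Among class counts, a floor of 10 CPM gave 8 higher in phagocyte-like and 8 in endothelial cell-like cells of the bead library, 10 lower in Schwann cell-like cells, and 2 higher and 10 lower in FACS phagocyte-like cells. A fold of 1.5 gave 8 higher in endothelial and 4 in pericyte or smooth muscle cell-like cells. Leaving out cells with markers of another type gave 2 higher in phagocyte-like bead cells, 2 lower in FACS phagocyte-like cells, 2 lower in Schwann cell-like cells and 1 lower in pericyte or smooth muscle cell-like cells. For the last class, naming by highest marker sum gave 3 lower and thinning gave 2 higher. Beyond what each setting changes by construction, the causes were not tested. In all, 99 of 129 alternative values of these counts and medians stayed within 1.5 times or the counting interval. The neutrophil-like and mast cell-like pools are small, with 89111 and 56128 UMIs in all, which widens the counting intervals of their values.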
